A study of Mus musculus with 6 samples.

Results

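The genes described here are the Wnt ligands, their receptors and coreceptors, the secreted antagonists, the intracellular components, the transcription factors and a few targets and feedback genes of the pathway. They were chosen by name, from the probes that carry a single gene symbol. The rule took every symbol that starts with *Wnt*, *Fzd* or *Dkk* plus a number or with *Sfrp*, and *Lrp5*, *Lrp6*, *Wif1*, *Frzb*, *Notum*, *Axin1*, *Axin2*, *Apc*, *Gsk3b*, *Dvl1* to *Dvl3*, *Lef1*, *Tcf7l1*, *Lgr5*, *Rnf43* and *Sp5*. It found 51 genes with 54 probes among the 13840 genes named on the array. *Wnt8b*, *Fzd3*, *Fzd9*, *Tcf7*, *Tcf7l2*, *Nkd1* and *Znrf3* were not analysed here.

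RNA came from the distal midgut of mouse embryos at E13.5. There were 3 samples of *Id2*+/+ embryos and 3 of *Id2*-/- littermates, each on 1 single-color Applied Biosystems mouse genome survey array, and no group received a treatment. *Id2* encodes an inhibitor of basic helix-loop-helix transcription factors, and the *Id2*-/- embryos lack it in every tissue, so the arrays hold no contrast limited to the epithelium or to the mesenchyme. The colony was kept on an inbred background or one mixed with NMRI, and neither the background of each embryo nor its sex is stated, nor whether a sample is a single embryo or a pool. The p-values therefore measure the spread between these samples, which may be technical. The targeted gene *Id2* was not analysed here, and the labels alone give the genotypes.

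Wnt proteins are secreted, lipid-modified ligands that bind Frizzled receptors and, in the canonical branch, the coreceptors Lrp5 and Lrp6. That binding disables a complex of Apc, Axin and Gsk3b which otherwise marks β-catenin for destruction, and β-catenin then acts in the nucleus with factors of the Tcf and Lef family. In the embryonic gut, canonical Wnt signals favor an intestinal fate of the epithelium, while the stomach mesenchyme makes secreted frizzled-related proteins that block them, and other Wnt proteins such as Wnt5a act without β-catenin in the lengthening of the gut tube.

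Tcf and Lef factors bind DNA with the core CTTTGAT or CTTTGAA, so the RefSeq promoter entries of the members were searched for both cores on both strands, in the 250 bases before each transcript's start on GRCm38.p6. Entries were found for 34 of the 51 members, 41 entries in all. The core CTTTGAT stood in entries of 3 members, which is 7.32% of the member entries against 3.21% of the 32851 entries of all genes. The core CTTTGAA stood in an entry of 1 member, 2.44% of the member entries against 4.46%. The E-box CANNTG, the site class of the helix-loop-helix factors that Id2 holds back, reads the same on both strands and stood in entries of 22 members, 63.4% of the member entries against 66.2% of all. The windows that hold a Tcf/Lef core are shown because they are the only stretches of these promoters with that match. Capitals mark the core, each stretch is read along the gene's strand, and each ends before the start site. From the first capital to the start site there are 104, 71, 51 and 117 bases, in the order shown. A match is a description of letters and not a binding site.
*Sp5*, chr2:70474794-70474850, plus strand: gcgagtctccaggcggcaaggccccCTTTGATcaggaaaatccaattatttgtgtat
*Wnt5b*, chr6:119449426-119449482, minus strand: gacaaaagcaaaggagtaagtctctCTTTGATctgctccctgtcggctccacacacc
*Wnt11*, chr7:98835036-98835092, plus strand, with the core on the opposite strand: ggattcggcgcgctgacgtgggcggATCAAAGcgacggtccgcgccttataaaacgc
*Dkk1*, chr19:30549582-30549638, minus strand: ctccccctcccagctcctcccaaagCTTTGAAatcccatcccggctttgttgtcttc
On the arrays, *Wnt5b* and *Wnt11* of these genes were tested, with differences between genotypes of 0.04 and -0.07 on the log2 scale, while *Sp5* was above background on no array and *Dkk1* on 1.

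Values below are log2 of the authors' median-normalized signal, on which 0 is the median of an array, and a difference is *Id2*-/- minus *Id2*+/+. Levels of different genes are not set against each other, because probes differ in brightness. A probe counts as above background on an array where the scanner's signal-to-noise score is at least 3, and a gene was tested where a probe carried no flag on any array and reached this limit on every array of *Id2*+/+, of *Id2*-/- or of both. Of all unflagged probes 39.6% met this. Arrays are named by genotype and by the number in the labels. The arrays numbered 1 stood apart in both genotypes. Over all tested probes their correlation was 0.984, while that between either of them and any other array was 0.909 to 0.931. Among the remaining 4 arrays it was 0.979 to 0.988. From 13890 to 16539 probes were above background per array, with the 2 highest numbers on the arrays numbered 1. The epithelial genes *Epcam* and *Cdh1* and the intestinal gene *Cdx2* were above background on all 6 arrays.

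A smaller share of the members than of all named genes was tested, and by role the share was lowest among the ligands. Of the 51 members, 21 were tested, 18 more were above background on some arrays without passing that filter, and 12 were above background on no array. The tested share was 41.2%, against 52.9% of all named genes, and 16 members, or 31.4%, were above background on all 6 arrays, against 47.3% of all named genes. By role, 6 of 10 receptors and coreceptors, 5 of 11 antagonists, 3 of 7 intracellular components, 2 of 3 target or feedback genes and 1 of 2 transcription factors were tested. Of the 18 ligands 4 were tested, which is 22.2%. The numbers of members above background were 30, 23 and 25 on the *Id2*+/+ arrays numbered 1, 2 and 3 and 34, 24 and 22 on the *Id2*-/- arrays, highest on number 1 in both genotypes.

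**Figure D1:**
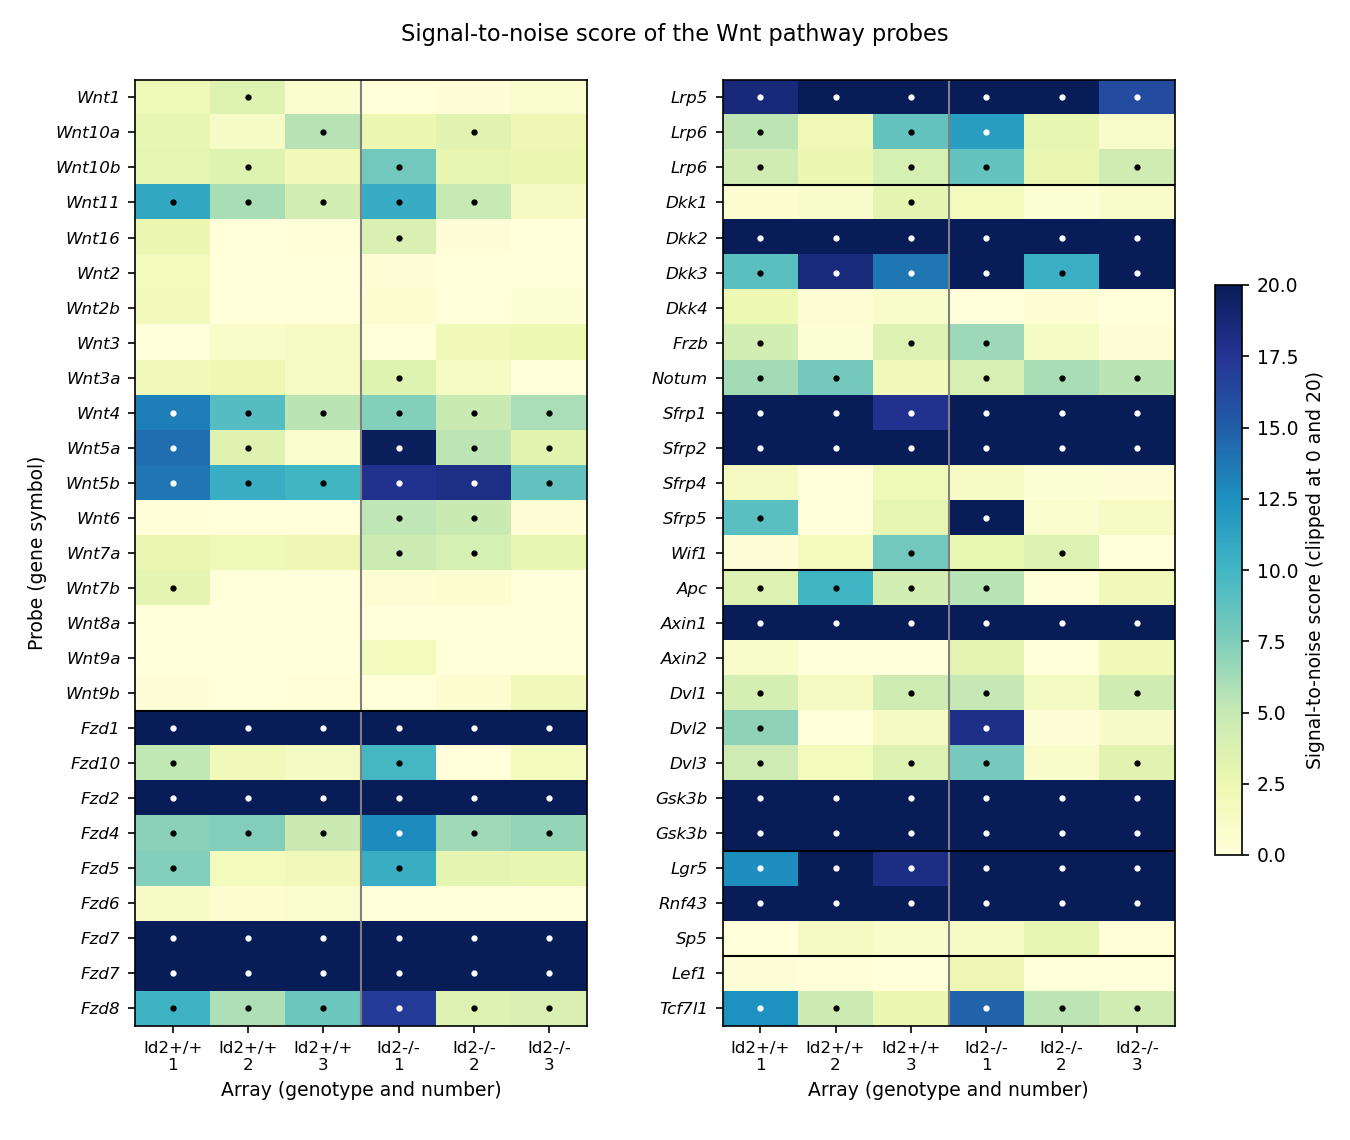
Signal-to-noise score of the Wnt pathway genes on each of the 6 arrays, with the 54 probes in rows, grouped by role, and arrays in columns; color gives the score from 0 to 20 and a dot marks a score of at least 3. Receptors such as *Fzd1*, *Fzd2* and *Fzd7* are above the limit of 3 on every array, while 12 genes, among them *Axin2*, *Lef1* and *Sp5*, reach it on no array.

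No member differed between genotypes past the threshold. In limma without the array number as a block, 0 of the 21 tested members and 0 of 12741 tested probes (0.0%) passed an adjusted p of 0.05. At an unadjusted p under 0.05 the counts were 0 members and 234 probes (1.84%). With the array number as a replicate block, 278 probes (2.18%) passed the adjusted test and again 0 members. At an unadjusted p under 0.05 that fit counted 4 members (*Lgr5*, *Wnt5a*, *Apc* and *Notum*) and 879 probes (6.9%). Of these members, *Wnt5a* and *Notum* passed the background filter through *Id2*-/- alone and *Apc* through *Id2*+/+ alone. The filter thus favors the direction of their differences, and the 2 counts are not a fair comparison. Every probe has the same standard error in the block fit. With quantile normalization added, the 3 members at an unadjusted p under 0.05, among 944 probes, were *Apc*, *Fzd8* and *Sfrp1*. There 0 members and 0 probes (0.0%) passed the adjusted test. The smallest adjusted p of any member in the block fit was 0.061, for *Lgr5*. The genotypes did not overlap for 0 of the 21 tested members, against 2.73% of tested probes with *Id2*-/- higher and 1.29% with *Id2*-/- lower. No tested member differed by more than 1 on the log2 scale, as 1.55% of tested probes did. The median difference of the members was 0.11, against 0.04 for all tested probes, and 14 of 21 differences were positive, against 60.4%. The standard errors of the members' differences ran from 0.25 to 0.91, so most of the intervals below include changes of more than 1.5-fold in either direction.

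**Figure D2:**
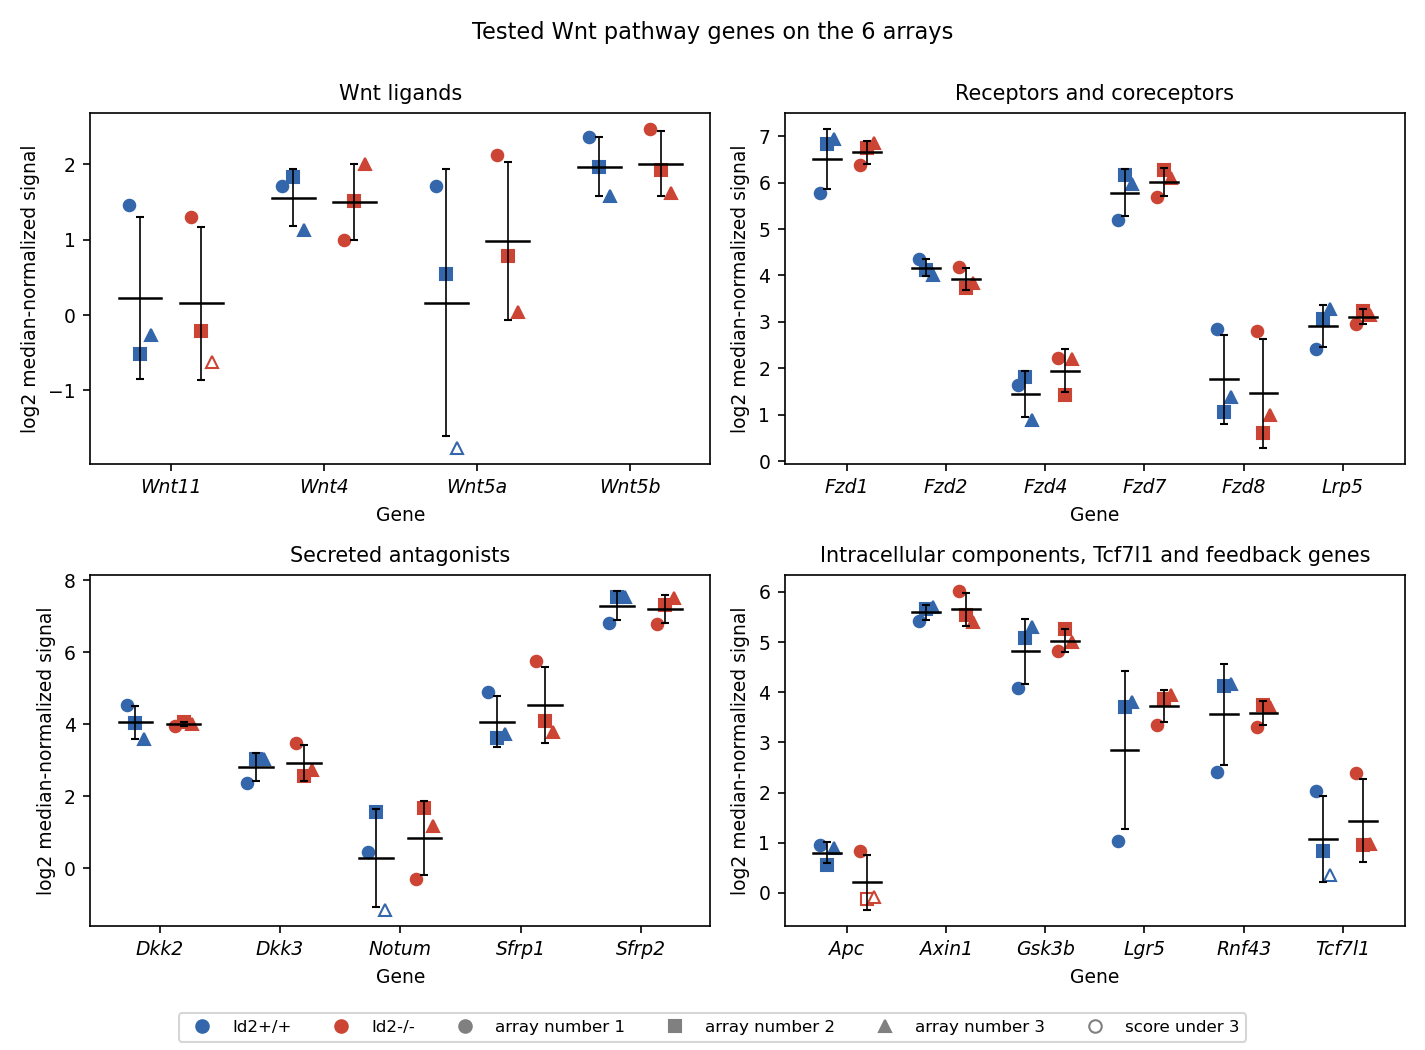
Log2 median-normalized signal of the tested Wnt pathway genes on each array, by genotype, with color for genotype, symbol shape for array number, open symbols for a score under 3, and bars for the mean ± SD (n = 3). The genotypes overlap for every gene shown. For *Wnt5a*, *Wnt5b*, *Wnt11*, *Fzd2*, *Fzd8*, *Sfrp1*, *Apc* and *Tcf7l1* the array numbered 1 is the highest of its genotype in both genotypes.

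Among the ligands, *Wnt4*, *Wnt5a*, *Wnt5b* and *Wnt11* were tested. *Wnt5a*, a ligand of the branch without β-catenin made by gut mesenchyme, had values of 1.72, 0.54 and -1.76 on the *Id2*+/+ arrays numbered 1, 2 and 3 and of 2.12, 0.78 and 0.04 on the *Id2*-/- arrays. The genotypes overlapped, the *Id2*+/+ array numbered 3 lay lowest and was not above background, and in each genotype the array numbered 1 was the highest. The difference was 0.82 with a standard error of 0.91 and a 95% interval from -1.32 to 2.95 (limma, adjusted p = 1.0). The *Id2*-/- array was the higher in each same-numbered pair, by 0.40, 0.24 and 1.81, and the adjusted p was 0.105 in limma with the replicate block. In that fit every probe shares 1 variance, and with quantile normalization added to it the adjusted p was 0.757 (limma). Leaving out the *Id2*+/+ array numbered 3 gave a difference of -0.15. Such a fit, here and for the genes below, has no block and keeps the same-numbered array of the other genotype.

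*Wnt5b*, the close paralog of *Wnt5a*, had values of 2.36, 1.97 and 1.58 in *Id2*+/+ and of 2.47, 1.93 and 1.62 in *Id2*-/-. The array number set these values apart more than the genotype did, and the same-numbered pairs differed by 0.11, -0.04 and 0.04. The interval of the difference ran from -0.73 to 0.81 around 0.04. *Wnt4*, a ligand best known from kidney and gonad development, had values of 1.71, 1.83 and 1.13 in *Id2*+/+ and of 0.99, 1.51 and 2.0 in *Id2*-/-. Its pairs went in different directions, by -0.72, -0.33 and 0.87, and its difference was -0.06 (interval -0.87 to 0.75). *Wnt11*, which like *Wnt5a* acts mostly without β-catenin, had values of 1.46, -0.52 and -0.26 in *Id2*+/+ and of 1.30, -0.21 and -0.62 in *Id2*-/-. On the array numbered 1 it was 1.85 above the mean of the other arrays in *Id2*+/+ and 1.72 above it in *Id2*-/-, and the genotypes differed by -0.07 (interval -1.64 to 1.5). The *Id2*-/- array numbered 3 was not above background for it.

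*Wnt6*, an epithelial ligand in many embryonic tissues, was the single member whose genotypes did not overlap, and it was not tested because it missed the background filter. It was picked out after its values were seen. Its values were -0.67, -1.24 and -0.82 in *Id2*+/+ and 0.70, 0.66 and -0.11 in *Id2*-/-. The signal-to-noise scores were 0.15, -0.32 and -1.06 on the *Id2*+/+ arrays and 5.31, 4.78 and 0.27 on the *Id2*-/- arrays, so it was above background on the *Id2*-/- arrays numbered 1 and 2 only. Its mean was at least 2.52-fold higher in *Id2*-/-, a bound that equals the plain ratio of the means and is therefore not a strict lower limit. Of all unflagged probes, tested or not, 2.71% did not overlap with *Id2*-/- higher and 2.41% with *Id2*-/- lower. A further description, 0 *Id2*+/+ arrays above background and at least 2 *Id2*-/- arrays above it, held for 1.09%. *Wnt7a* met the latter description too, but its signals overlapped, at 1.13, 2.11 and 1.64 in *Id2*+/+ and 1.28, 2.08 and 1.82 in *Id2*-/-. *Wnt1*, *Wnt3a*, *Wnt7b* and *Wnt16* were above background on 1 array each, and *Wnt10a* and *Wnt10b* on 1 array of each genotype. The *Wnt16* probe also carried a flag, on an array other than the one where it was above background. *Wnt2*, *Wnt2b*, *Wnt3*, *Wnt8a*, *Wnt9a* and *Wnt9b* were above background on no array. Of these, *Wnt2b* had signals of -1.36, 0.64 and -0.58 in *Id2*+/+ and of -2.53, -0.74 and -1.29 in *Id2*-/-, overlapping, with the *Id2*-/- array lower in each pair and no score over 1.86. A signal near background limits what the array can show and does not show that the gene is silent.

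Of the receptors, *Fzd1*, *Fzd2*, *Fzd4*, *Fzd7*, *Fzd8* and the coreceptor gene *Lrp5* were tested, all of them above background on all 6 arrays. *Fzd7*, which encodes a receptor that stem cells of the adult intestine use, had values of 5.20, 6.17 and 5.97 in *Id2*+/+ and of 5.68, 6.26 and 6.09 in *Id2*-/-. The lowest value was on the *Id2*+/+ array numbered 1 and the genotypes overlapped. The difference was 0.23 (standard error 0.33, interval -0.55 to 1.01), with the *Id2*-/- array higher in each pair, by 0.48, 0.09 and 0.12, and a second tested probe of the gene gave 0.28. Leaving out the *Id2*+/+ array numbered 1, the first probe gave -0.061.

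*Fzd4*, known as the receptor of Norrin in blood vessels, had values of 1.64, 1.81 and 0.88 in *Id2*+/+ and of 2.22, 1.41 and 2.21 in *Id2*-/-. Array 3 of *Id2*+/+ was the lowest, the second *Id2*-/- array lay among the *Id2*+/+ values, and the pairs differed by 0.58, -0.40 and 1.33. Its difference of 0.51 (standard error 0.36, interval -0.34 to 1.35) stayed positive on leaving out any single array, between 0.22 and 0.77. Of the endothelial markers 7 of 10 were tested, with 0 called and a median difference of 0.41, and all 7 were positive. Their summed normalized signal was 70.5, 126 and 128 in *Id2*+/+ and 151, 149 and 116 in *Id2*-/-. Such a sum, here and for the marker lists below, adds the signals of different probes, so the brightest probes weigh most. All endothelial markers with a probe were above background on at least 1 array. The median pair differences of these markers were 1.09, 0.34 and -0.12, opposite in sign to those of *Fzd4* in the pairs numbered 2 and 3. The part of this in the *Fzd4* value was not tested. In whole tissue, fewer or more cells of a type and less or more RNA per cell cannot be told apart.

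*Fzd2*, a receptor used for Wnt5a in the embryo, had values of 4.36, 4.12 and 4.02 in *Id2*+/+ and of 4.18, 3.73 and 3.83 in *Id2*-/-. The first *Id2*-/- array lay among the *Id2*+/+ values and the other two below all of them. The *Id2*-/- array was the lower in each pair, by -0.18, -0.38 and -0.19, for a difference of -0.25 (standard error 0.25, interval -0.83 to 0.33). *Fzd8* was also lower in each pair, by -0.03, -0.46 and -0.39, from values of 2.84, 1.06 and 1.38 in *Id2*+/+ and of 2.80, 0.60 and 0.98 in *Id2*-/-. Its arrays numbered 1 were 1.62 and 2.01 above the others of their genotype, and the interval of its difference of -0.30 ran from -1.90 to 1.31. The direction turned to 0.24 without the *Id2*+/+ array numbered 1.

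*Fzd1* showed the reverse order by array number, with 5.77, 6.84 and 6.93 in *Id2*+/+ and 6.38, 6.74 and 6.86 in *Id2*-/-, lowest on number 1 in both. It differed by 0.14 between genotypes (interval -0.71 to 1.0). *Lrp5*, which with *Lrp6* encodes the coreceptors of the canonical branch, had values of 2.42, 3.05 and 3.27 in *Id2*+/+ and of 2.95, 3.24 and 3.15 in *Id2*-/-, a difference of 0.20 (interval -0.49 to 0.89). Both probes of *Lrp6* missed the filter, being above background on 4 arrays and on 3 arrays. *Fzd5*, an epithelial receptor of the gut, was above background on the arrays numbered 1 only, as was *Fzd10*. The *Fzd5* signals were 1.28, 0.65 and 0.27 in *Id2*+/+ and 1.36, 1.55 and 1.21 in *Id2*-/-. *Fzd6* was above background on no array.

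Of the secreted antagonists, 5 were tested. *Sfrp1* and *Sfrp2* encode frizzled-related proteins that bind Wnt proteins outside the cell, and the stomach mesenchyme uses both to hold Wnt signals down. *Sfrp2* had values of 6.83, 7.53 and 7.54 in *Id2*+/+ and of 6.79, 7.33 and 7.51 in *Id2*-/-. The arrays numbered 1 were the lowest of each genotype and the same-numbered arrays lay close together, with pair differences of -0.05, -0.21 and -0.03. Its mean in *Id2*-/- was 0.938 of that in *Id2*+/+, with a 95% interval from 0.557 to 1.58 (limma, adjusted p = 1.0).

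*Sfrp1* had values of 4.89, 3.61 and 3.72 in *Id2*+/+ and of 5.75, 4.08 and 3.79 in *Id2*-/-. It was highest on the arrays numbered 1, by 1.23 over the others in *Id2*+/+ and by 1.81 in *Id2*-/-, and the genotypes overlapped. The *Id2*-/- array was the higher in each pair, by 0.86, 0.47 and 0.07. The ratio of *Id2*-/- over *Id2*+/+ was 1.38 with an interval from 0.532 to 3.59 (limma, adjusted p = 1.0), and the adjusted p in limma with the replicate block was 0.996. Leaving out the *Id2*-/- array numbered 1 turned the log2 difference from 0.47 to -0.14, and without both arrays numbered 1 it was 0.27. *Barx1*, the homeobox gene of the stomach mesenchyme that turns on *Sfrp1* and *Sfrp2* there, was tested as a gene outside the set. Its values were 1.52, 1.57 and 1.27 in *Id2*+/+ and 1.74, 1.01 and 1.37 in *Id2*-/-, overlapping, with a difference of -0.09.

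*Notum* encodes an enzyme that removes the lipid from Wnt proteins and is itself a target of the pathway. It had values of 0.45, 1.55 and -1.16 in *Id2*+/+ and of -0.31, 1.68 and 1.16 in *Id2*-/-. The pairs differed by -0.76, 0.13 and 2.32, so the difference of 0.56 (standard error 0.76, interval -1.23 to 2.36) came from the pair numbered 3, in which the *Id2*+/+ array was not above background. Without that *Id2*+/+ array it was -0.16. *Dkk3*, a divergent member of the Dickkopf family, had values of 2.38, 3.03 and 3.05 in *Id2*+/+ and of 3.49, 2.55 and 2.72 in *Id2*-/-. The first pair differed by 1.12 and the other pairs by -0.47 and -0.32, and the interval around its difference of 0.11 ran from -0.70 to 0.91. *Dkk2*, whose protein binds Lrp coreceptors, had values of 4.53, 4.04 and 3.60 in *Id2*+/+ and of 3.95, 4.05 and 4.02 in *Id2*-/-, a difference of -0.05 (interval -0.73 to 0.64).

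The other antagonists were dim. *Sfrp5*, a gene of the early foregut endoderm, was above background on the arrays numbered 1 alone, with signal-to-noise scores of 9.06 in *Id2*+/+ and 38.17 in *Id2*-/-. Its values there were 0.25 and 2.36, and on the other arrays they ran from -2.10 to -0.59. *Frzb*, which encodes another frizzled-related protein, was above background on 3 arrays, *Wif1*, which encodes a Wnt-binding inhibitor, on 2 and *Dkk1* on 1. *Dkk4* and *Sfrp4* were above background on no array.

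Inside the cell, *Apc* had the most negative difference of the tested members. It encodes the scaffold of the β-catenin destruction complex, whose loss starts most intestinal tumors. The values were 0.95, 0.56 and 0.89 in *Id2*+/+ and 0.84, -0.13 and -0.08 in *Id2*-/-. On the array numbered 1 the *Id2*-/- value lay among the *Id2*+/+ values, and on the other *Id2*-/- arrays it lay below them and was not above background. The difference was -0.59 (standard error 0.33, interval -1.36 to 0.18) and stayed between -0.91 and -0.42 on leaving out any single array. The adjusted p was 1.0 in limma and 0.548 with the replicate block. Part of the difference thus rests on signals near background. *Apc* also passed the filter through *Id2*+/+ alone, which favors a negative difference. The fits that leave out an array kept the same tested probes, so their sign is no separate evidence.

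Its partners differed less. *Axin1*, which holds the same complex together, had values of 5.42, 5.67 and 5.70 in *Id2*+/+ and of 6.02, 5.54 and 5.40 in *Id2*-/-, with pair differences of 0.60, -0.13 and -0.30 and a difference of 0.06 (interval -0.56 to 0.67). *Gsk3b*, the kinase of the complex, had values of 4.08, 5.07 and 5.29 in *Id2*+/+ and of 4.82, 5.27 and 5.0 in *Id2*-/-. It differed by 0.21 (interval -0.64 to 1.07), and a second tested probe gave 0.05. The Dishevelled genes, which relay the signal from Frizzled, missed the filter: *Dvl1* and *Dvl3* were above background on the arrays numbered 1 and 3 of both genotypes and *Dvl2* on those numbered 1.

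Several genes known to respond to the pathway were not seen on these arrays. *Axin2*, the most widely used target of β-catenin, *Sp5*, another direct target, and *Lef1*, a Tcf/Lef factor that the pathway itself raises, were above background on no array. The *Axin2* signals were -0.94, -1.67 and -1.22 in *Id2*+/+ and -0.04, -1.84 and -0.48 in *Id2*-/-, overlapping. *Tcf7l1*, which encodes a Tcf factor that mostly represses targets, had values of 2.02, 0.83 and 0.36 in *Id2*+/+ and of 2.39, 0.96 and 0.97 in *Id2*-/-. It was higher on the *Id2*-/- array of each pair, by 0.37, 0.13 and 0.61, and its difference of 0.37 had a standard error of 0.55 and an interval from -0.93 to 1.67. The *Id2*+/+ array numbered 3 was not above background, and leaving out the *Id2*-/- array numbered 1 gave -0.11.

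*Lgr5*, a Wnt target that encodes the receptor of R-spondins and marks stem cells of the adult intestine, had the most positive difference of the tested members. Its values were 1.03, 3.70 and 3.81 in *Id2*+/+ and 3.36, 3.87 and 3.94 in *Id2*-/-. A single array, *Id2*+/+ number 1, lay far below the other 5, which ranged from 3.36 to 3.94. The means were 2.85 ± 1.57 and 3.72 ± 0.32 (SD, n = 3 each), for a difference of 0.87 (standard error 0.72, interval -0.82 to 2.57). The pairs differed by 2.32, 0.17 and 0.13, so the sign was the same in all 3 while the size came from the first. Limma gave an adjusted p of 1.0, and of 0.061 with the replicate block, a fit in which every probe shares 1 variance. Leaving out the *Id2*+/+ array numbered 1 gave -0.032, and without both arrays numbered 1 it was 0.15.

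*Rnf43*, whose protein clears Frizzled from the cell surface and which epithelial cells turn on in response to Wnt, had values of 2.40, 4.12 and 4.17 in *Id2*+/+ and of 3.31, 3.74 and 3.71 in *Id2*-/-. The first *Id2*+/+ array was again the lowest, the other *Id2*+/+ arrays were the highest, and the *Id2*-/- arrays lay between. The pairs differed by 0.91, -0.39 and -0.46, the overall difference was 0.02 (interval -1.14 to 1.18), and without both arrays numbered 1 it was -0.42. The summed signal of epithelial markers was lowest on *Id2*+/+ number 1 too. The same held for the marker lists of gut mesenchyme, smooth muscle, enteric neural crest, endothelium, erythroid cells and stomach. It did not hold for those of macrophages, mesothelium and pancreas. Of 18 pan-epithelial markers 15 were tested, and each of those with a probe was above background on at least 1 array. Their summed normalized signal was 611, 1438 and 1713 on the *Id2*+/+ arrays and 876, 978 and 1010 on the *Id2*-/- arrays, lowest on *Id2*+/+ number 1. Their median pair differences were 0.48, -0.48 and -0.83, with 0 called. In the pairs numbered 2 and 3 *Lgr5* was positive, by 0.17 and 0.13, while *Rnf43* was negative like these markers. Of 14 intestinal epithelial markers 9 were tested, with sums of 130 to 549 in *Id2*+/+ and 175 to 259 in *Id2*-/-, 0 called without and 3 lower with the replicate block, and *Cdx1*, itself a Wnt target, above background on no array. Their part in the *Lgr5* and *Rnf43* values was not tested.

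**Figure D3:**
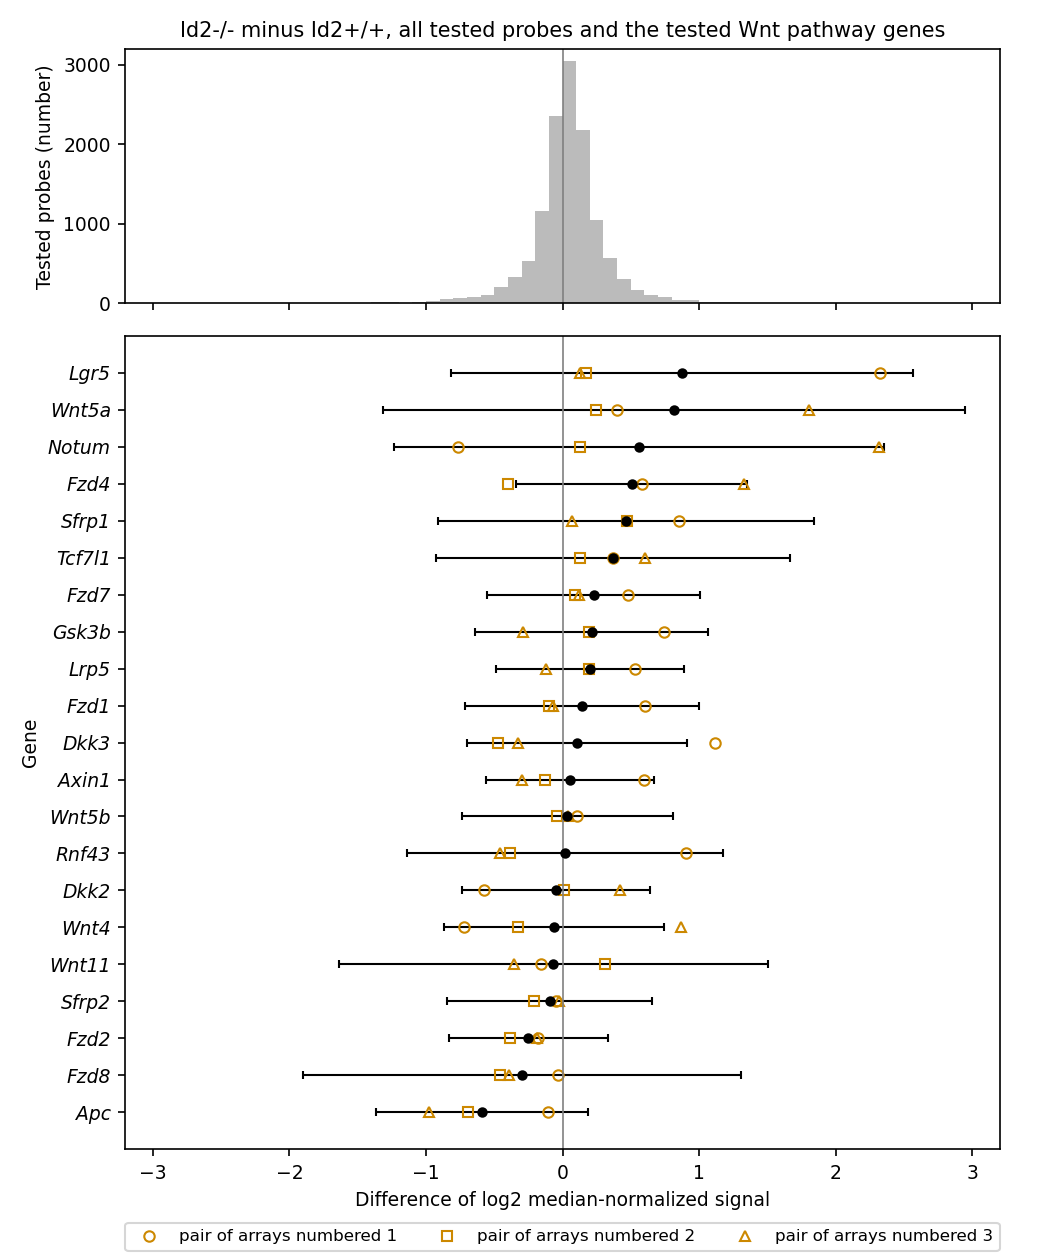
Difference of log2 signal between genotypes, *Id2*-/- minus *Id2*+/+: the histogram shows all 12741 tested probes, and below it black points and bars give each tested Wnt pathway gene's difference with its 95% interval in limma, open symbols the 3 same-numbered pairs. Every interval includes 0, and the pair numbered 1 of *Lgr5* (2.32) and the pair numbered 3 of *Notum* (2.32) lie farthest out.

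Read pair by pair, 5 of the 21 tested members were higher on the *Id2*-/- array in all 3 pairs (*Wnt5a*, *Fzd7*, *Sfrp1*, *Lgr5* and *Tcf7l1*), against 11.8% of all tested probes. Another 4 were lower in all 3 pairs (*Apc*, *Fzd2*, *Fzd8* and *Sfrp2*), against 5.64%. *Wnt5a* and *Tcf7l1* passed the filter through *Id2*-/- alone and *Apc* through *Id2*+/+ alone, so the filter favors the direction of their pairs. The values also cannot decide how the arrays numbered 2 and 3 pair. The median pair difference over the members was 0.40, -0.04 and -0.03 for the pairs numbered 1, 2 and 3, and over all tested probes it was 0.35, -0.04 and -0.19.

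For most members, as for most tested probes, the arrays numbered 1 differed from the others by more than the genotypes differed. For 18 of the 21 tested members the shift of the arrays numbered 1 from the others, averaged over genotypes, was larger than the difference between genotypes, as it was for 82.8% of all tested probes. The shift had the same sign in both genotypes for 16 members, upward for 9 and downward for 7, against 34.5% and 40.2% of all tested probes. It was over 1 in both genotypes for *Wnt5a*, *Wnt11*, *Fzd8*, *Sfrp1* and *Tcf7l1*. The largest downward shift was that of *Lgr5*, -2.72 in *Id2*+/+ and -0.55 in *Id2*-/-, followed by *Rnf43*, -1.74 and -0.42. *Notum* went in different directions, 0.26 and -1.73. Gut mesenchyme markers, 13 of 18 tested with 0 called, had summed signals of 3489, 8326 and 8093 in *Id2*+/+ and of 4233, 7623 and 6792 in *Id2*-/-, lowest on number 1 in both, with *Prrx1* above background on no array. Mesothelial markers, 3 of 5 tested with 0 called, went the other way. Their summed signals were 154, 68.8 and 70.2 in *Id2*+/+ and 105, 73.2 and 69.5 in *Id2*-/-. The labels do not say what the arrays numbered 1 share, and the part of tissue makeup in their shift was not tested.

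**Figure D4:**
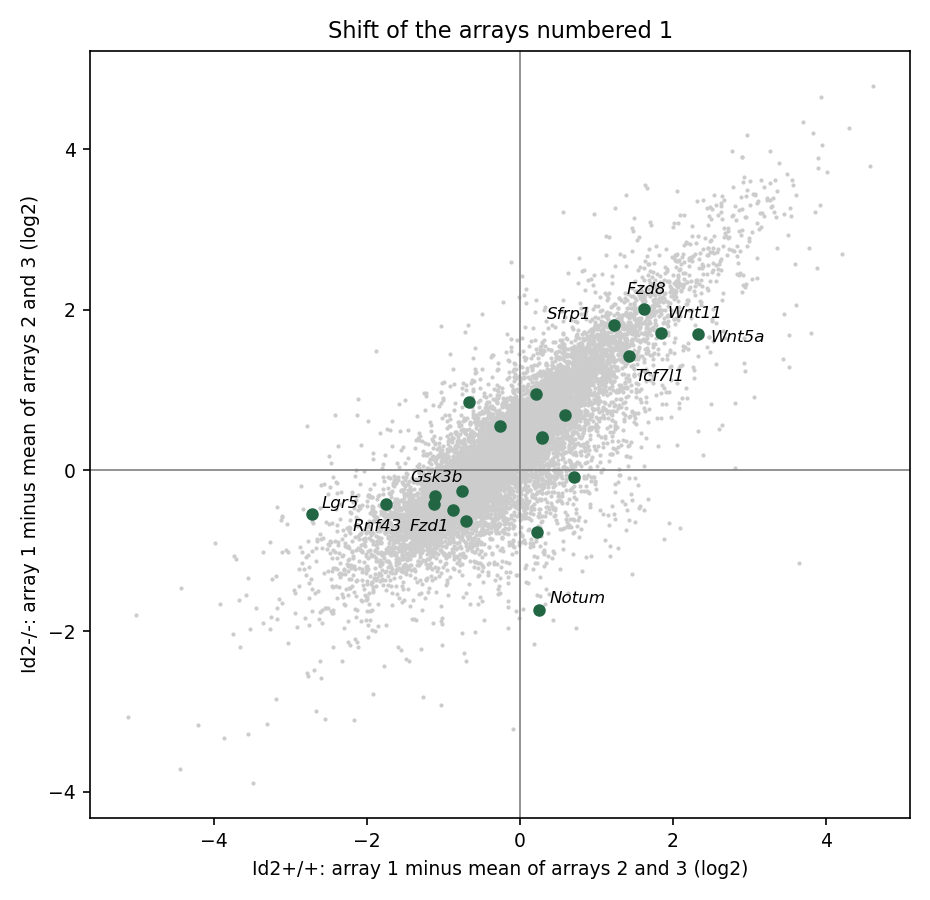
Shift of the array numbered 1 from the mean of arrays 2 and 3, in log2, in *Id2*+/+ (x axis) and *Id2*-/- (y axis): gray points are all tested probes and green points the 21 tested Wnt pathway genes. *Wnt5a*, *Wnt11*, *Fzd8*, *Sfrp1* and *Tcf7l1* lie at the upper right, above 1 on both axes, and *Lgr5* and *Rnf43* at the lower left.

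Beyond the 51 members, a list of 72 further genes of the pathway had 53 genes with a probe, of which 33 were tested and 0 were called in either fit. Their differences ran from -0.57 for *Dact2*, which encodes a Dishevelled-binding protein, to 0.75 for *Tmem198*, with a median of 0.04, and 22 were positive. *Ctnnb1*, the gene of β-catenin, differed by 0.19, *Wls*, needed for Wnt secretion, by 0.15, and the R-spondin genes *Rspo1* and *Rspo3* by 0.05 and -0.13. Of these 33 genes *Cxxc5*, which encodes an inhibitor of Dishevelled, was the only one whose genotypes did not overlap, against 4.02% of all tested probes in either direction. Its values were 3.84, 3.89 and 4.16 in *Id2*+/+ and 3.72, 3.53 and 3.65 in *Id2*-/-, a difference of -0.33. *Celsr2*, *Csnk1g1*, *Rspo4*, *Sost*, *Kremen1* and *Kremen2* were above background on no array.

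A second list held 23 genes known as Wnt targets in gut or embryo, of which 15 had a probe, 6 were tested and 0 were called in either fit. *Ccnd1*, the gene of cyclin D1, was higher on the *Id2*-/- array of each pair, by 0.51, 0.49 and 0.36, a difference of 0.45. *Cdx2*, the homeobox gene of intestinal identity, differed by -0.40, *Fn1* by 0.13, *Apcdd1*, which the first list holds too, by 0.10, *Myc* by -0.08 and *Bambi* by 0.04. Of the rest, *Cdx1*, *Msx2* and *Mmp7* were above background on no array.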

How the data were processed

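Per the labels and methods, total RNA was amplified once, labeled and hybridized to 1 Applied Biosystems array per sample. The authors deposited, for each probe, the scanner's signal intensity with its signal-to-noise score and quality flag, and their own median-normalized intensity, which divides the signal by the array's median (708 to 1010.4). The deposited series table holds identical values. Whether background was subtracted is not stated. The methods leave out flags under 5000. Here flags of 5000 or more were taken as bad, which leaves 32189 of 33012 probes unflagged on all arrays. Of the probes 14411 have 1 gene symbol in the platform annotation, 247 several and 18354 none, and only those with 1 were named.

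The log2 normalized intensity went into limma 3.58.1 (lmFit and eBayes, R 4.3.3, Benjamini-Hochberg adjustment at 0.05) over the 12741 unflagged probes whose score reached 3 on every array of at least 1 genotype, which are 39.6% of unflagged probes. A gene with several tested probes is given by the one with the highest mean. The fits were first tested on simulated data. For a probe above background on no array of a genotype, the fold is given as at least N, with each dim array's value set to the higher of its own signal and the lowest signal above background. Members, lists and the search for motifs were chosen with earlier results of these data known. Named with full values were, in each role, the 3 tested members with the smallest unadjusted p, *Sfrp1* and *Sfrp2*, tested members without overlap, tested members whose pairs all differ by at least 0.5 the same way, and members above background on all arrays of 1 genotype but not of the other; the remaining tested members are shown as well. Deviations from the genotype means correlated at 0.838, 0.644 and 0.579 between same-numbered arrays, all above 0.1, so the array number was used as a pairing, although the labels only call the embryos littermates. Across numbers, the second *Id2*+/+ and the third *Id2*-/- array also correlated, at 0.638, and the third *Id2*+/+ and the second *Id2*-/- array at 0.549. These are close to the 0.644 and 0.579 within numbers. The values thus set the arrays numbered 1 apart but cannot decide how those numbered 2 and 3 pair. The replicate block and every statement by pair carry this limit. The number of arrays, 3 per genotype, limits the precision, and an exact permutation test of 3 against 3 cannot go below p = 0.1. Alternatives were quantile normalization, other filters and limits, flagged spots kept, an offset, another prior, the replicate block, the mean over probes, the series table and leaving out each array. Figures were drawn with matplotlib 3.10.9.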

Additional observations from a re-analysis of the deposited data

How the results depend on the processing

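The count of 0 called members was the same in all 16 alternatives in which it was recomputed. In each of these except the replicate block, 0 of all fitted probes were called too, so the count there shows nothing particular to the members. Over all tested probes the replicate block gave 135 higher and 143 lower calls where the fit without it gave 0 and 0, and adding quantile normalization to the block returned 0. The block changed no other call. A score limit of 2 gave 26 members with a tested probe in place of 21, and a limit of 5 or a limit of 3 on each of the 6 arrays gave 16. The latter drops *Wnt5a*, *Wnt11*, *Apc*, *Notum* and *Tcf7l1*.

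The *Wnt5b* difference was -0.012 with quantile normalization, with or without the block. Without both arrays numbered 1, an alternative chosen after seeing the data, signs turned for *Wnt4* (0.27), *Axin1* (-0.21), *Gsk3b* (-0.048), *Fzd1* (-0.086), *Dkk2* (0.22), *Dkk3* (-0.40) and *Rnf43* (-0.42), while the median of all tested probes went from 0.04 to -0.11. Leaving out single arrays, with the tested probes unchanged, kept the sign of *Apc* (-0.91 to -0.42), *Fzd2* (-0.38 to -0.15) and *Fzd4* (0.22 to 0.77). Of these, *Apc* passed the filter through *Id2*+/+ alone. The other 18 tested members changed sign at least once, with ranges of -0.31 to 0.20 for *Wnt4*, -0.15 to 1.59 for *Wnt5a*, -0.20 to 0.23 for *Wnt5b*, -0.64 to 0.55 for *Wnt11*, -0.23 to 0.35 for *Fzd1*, -0.061 to 0.42 for *Fzd7*, -0.97 to 0.24 for *Fzd8*, -0.050 to 0.38 for *Lrp5*, -0.28 to 0.19 for *Dkk2*, -0.18 to 0.29 for *Dkk3*, -0.16 to 1.2 for *Notum*, -0.14 to 0.88 for *Sfrp1*, -0.33 to 0.12 for *Sfrp2*, -0.13 to 0.18 for *Axin1*, -0.15 to 0.45 for *Gsk3b*, -0.032 to 1.36 for *Lgr5*, -0.56 to 0.32 for *Rnf43* and -0.11 to 0.84 for *Tcf7l1*. The cause was not tested. No block for slide or scan could be fitted without such information. Signals near background limit the members that the filter left out. A fit without the filter took in 30 more of their probes and called 0 of them, as it called 0 of all 32189 unflagged probes. At an unadjusted p under 0.05 it counted 1 of the 30, *Wnt6* (adjusted p = 1.0 in limma), and 710 of all unflagged probes.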
